A study of Mus musculus with 9 samples.

Results

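Activated fibroblasts from a mouse model of non-alcoholic steatohepatitis (NASH-fib) were compared with activated fibroblasts from carbon tetrachloride-induced liver fibrosis (CCl4-fib) by RNA sequencing. The comparison takes all genes in 6 of the 9 libraries of the series, 3 per group, chosen by their titles. The other 3 libraries, of hepatic stellate cells (HSCs) from the normal livers of wild-type mice, serve as a reference. NASH-fib came from male mice that lacked the melanocortin 4 receptor and carried a transgene in which the collagen α2(I) promoter drives green fluorescent protein (Col1a2-GFP Tg), which ate Western diet (WD) for 20 weeks from 8 weeks of age. CCl4-fib came from Col1a2-GFP Tg mice with an intact receptor gene, of an age and sex not given in the sources used here, after intraperitoneal injections of CCl4 2 times per week for 8 weeks. All mice were on the C57BL/6J background. Both kinds of fibroblast were sorted as living cells without the leukocyte antigen CD45 and with GFP, so they are cells in which the Col1a2 promoter was active, and each library pools 3 to 5 mice. Genotype, diet, toxin and duration all differ between the groups and cannot be told apart. The HSCs were taken by density gradient, not by the GFP sort.

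Hepatic stellate cells store retinoids in the healthy liver and turn into collagen-secreting myofibroblasts after injury. In the CCl4 model, the toxin is activated by cytochrome P450 in hepatocytes around the central vein and kills them, and bands of scar link the lobules, while in steatohepatitis fat-laden hepatocytes are wrapped by a fine scar around single cells. Myofibroblasts lay down fibrillar collagens, which are folded, hydroxylated and cross-linked by dedicated enzymes, and they also make the proteases that take the scar apart.

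Upstream sequences are shown for 4 genes with large differences between the models, as examples for the groups described below: 3 genes of bone and matrix breakdown that were higher in NASH-fib and a neutrophil chemokine that was higher in CCl4-fib. Each is the run of 250 bases that ends just before the RefSeq start of the gene, on the strand of the gene, in GRCm38.p6. Capitals mark matches, on either strand, to letters typical of RUNX factors (TGTGGT), AP-1 (TGANTCA) or NF-kappaB (its usual decamer), and a match is a description of letters only.
Mmp13, chr9:7272264-7272513, + strand: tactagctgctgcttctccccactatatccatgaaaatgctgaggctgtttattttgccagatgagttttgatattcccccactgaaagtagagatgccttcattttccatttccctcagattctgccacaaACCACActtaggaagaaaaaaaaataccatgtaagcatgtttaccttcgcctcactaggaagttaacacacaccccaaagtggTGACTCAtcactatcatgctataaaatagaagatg
Bglap, chr3:88384467-88384716, - strand: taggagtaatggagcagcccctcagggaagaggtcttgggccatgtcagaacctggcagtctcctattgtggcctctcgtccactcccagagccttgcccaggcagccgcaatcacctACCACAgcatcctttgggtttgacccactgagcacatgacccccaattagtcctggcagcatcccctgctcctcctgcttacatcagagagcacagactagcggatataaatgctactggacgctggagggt
Ibsp, chr5:104299037-104299286, + strand: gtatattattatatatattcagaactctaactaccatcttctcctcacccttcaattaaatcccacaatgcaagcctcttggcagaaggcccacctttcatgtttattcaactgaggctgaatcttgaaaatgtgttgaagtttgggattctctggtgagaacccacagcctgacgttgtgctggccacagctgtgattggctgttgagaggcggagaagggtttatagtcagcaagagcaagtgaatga
Cxcl1, chr5:90890995-90891244, + strand: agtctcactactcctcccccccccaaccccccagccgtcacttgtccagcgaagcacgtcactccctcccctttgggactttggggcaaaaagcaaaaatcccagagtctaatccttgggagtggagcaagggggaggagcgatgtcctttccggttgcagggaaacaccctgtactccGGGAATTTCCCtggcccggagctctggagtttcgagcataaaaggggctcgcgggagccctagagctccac
Counting back from the start, Mmp13 holds the RUNX letters on its opposite strand at -118 to -113 and the AP-1 letters at -35 to -29. Bglap holds the RUNX letters on its opposite strand at -132 to -127. Cxcl1 holds the NF-kappaB letters at -71 to -62 and, overlapping them on the opposite strand, at -70 to -61. The stretch before Ibsp holds neither the RUNX nor the AP-1 letters. Of 32851 upstream stretches of this length in the RefSeq table, 14.0% hold the RUNX letters, 6.75% the AP-1 letters and 1.21% the NF-kappaB letters.

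The deposited value is a read count multiplied by 1 factor per library, which brings each library to nearly the same total (4471988 to 4471995). All values below are on that scale, on which 3 reads are worth 2.38 to 4.37 depending on the library. The 6 fibroblast libraries held 3289758 to 5634273 reads on genes. Of 13651 genes tested, 678 were called higher in NASH-fib and 773 lower, a call being a log2 fold change (NASH-fib minus CCl4-fib) of at least 1 in size with an adjusted p under 0.05 in limma, with Benjamini-Hochberg adjustment over all genes tested. These calls are 4.97% and 5.66% of the tested genes, which is the background for each gene group below, and edgeR's quasi-likelihood test on the recovered reads split its calls differently, with 802 higher and 563 lower. The gene groups were chosen with earlier results of these data known and some share members, so their shares are descriptions and not tests. Over all tested genes the log2 fold change had a median of -0.11, which moved to 0.07 with TMM scaling and to 0.14 in edgeR. The 3 libraries of each group lay fully apart in 22.0% of tested genes with NASH-fib below in 17.1% with NASH-fib above and in 39.1% in all. Among called genes they lay apart in 773 of 773 and 673 of 678. In the plot of group means, called genes lie on both sides of the diagonal, and Rgs5 and Ogn are among the most abundant of the higher ones and Ccdc80 and Col1a1 of the lower ones. Leaving out 1 library changed the counts to between 113 and 794 higher and between 72 and 1013 lower. There were 140 and 72 when CCl4-fib replicate 2 was left out, 337 and 195 for its replicate 1 and 297 and 398 for its replicate 3. There were 113 and 156 when NASH-fib replicate 3 was left out and 326 and 358 for its replicate 1. Called in all 9 such fits were 85 higher and 70 lower genes. Reads of either strand were counted together, and among genes named here Mmp7, Nid2, Ltbp2, Mdk, Angpt2, Kdelr3, Itga4, Il1b, Ncam1, Abcc9, Cdh5 and Timp1 overlap another gene, with which they may share reads.

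**Figure D1:**
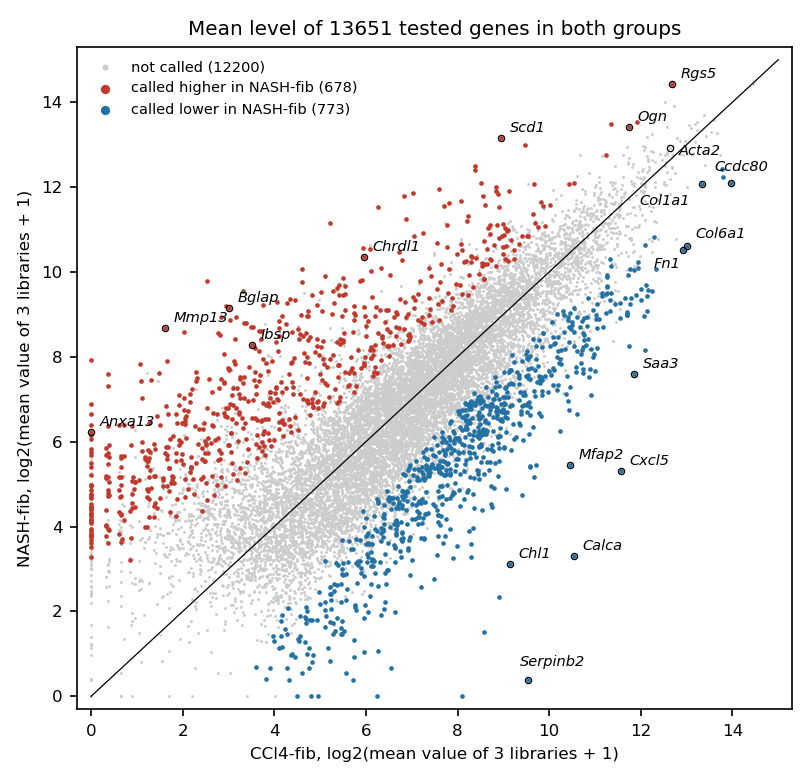
Mean of the 3 NASH-fib libraries (vertical) against the mean of the 3 CCl4-fib libraries (horizontal), each as log2(mean value + 1), for the 13651 tested genes; red points are the 678 genes called higher in NASH-fib, blue points the 773 called lower, grey points the rest, and the line marks equal means. Among the labelled genes Serpinb2, Calca, Chl1, Cxcl5 and Mfap2 lie far below the line, and Mmp13, Bglap and Anxa13 far above it.

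The libraries also differed in ways that move with the groups. NASH-fib replicate 1 stood apart, with a correlation of 0.768 with replicate 2 and 0.815 with replicate 3 across tested genes, which are not independent, and it held the lowest NASH-fib value for 530 of the 773 lower genes and the highest for 399 of the 678 higher ones. The median log2 level of the GC-richest quintile of genes, minus that of the GC-poorest quintile, was -3.70, -1.57 and -2.13 in NASH-fib replicates 1, 2 and 3 and -0.74, -0.80 and -1.17 in those of CCl4-fib, so GC-rich genes were read less in every NASH-fib library. Genes called lower had a median GC content of 53.8% and a median length of 1987 bases, against 49.2% and 2838 bases for all tested genes and 45.7% and 3002 bases for genes called higher. With smooth trends on GC content and length removed from each library, 820 genes were higher and 546 lower, of which 575 and 432 are calls of the comparison above. The mean log2 level of 20 hepatocyte markers was 9.58, 8.34 and 10.56 in NASH-fib and 6.68 to 7.12 in CCl4-fib, and a fit with this level as a term called 0 genes in either direction, with 412 higher and 455 lower at an unadjusted p under 0.05. Since the level lay higher in every NASH-fib library than in any CCl4-fib library, this term runs with the groups. The fit therefore cannot tell the level and the group apart.

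**Figure D2:**
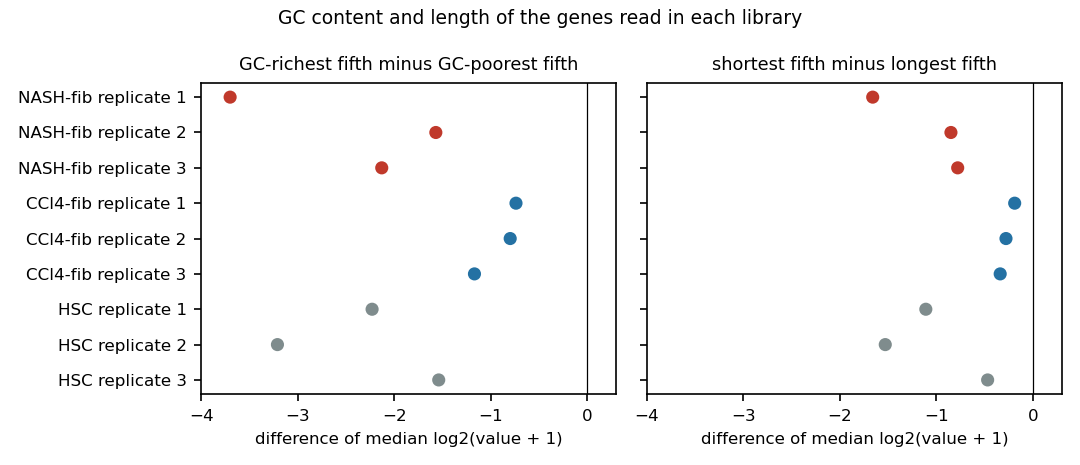
For each of the 9 libraries (rows; red NASH-fib, blue CCl4-fib, grey HSC), the difference in median log2(value + 1) between the GC-richest and GC-poorest quintile of tested genes (left) and between the shortest and longest quintile (right). The 3 NASH-fib libraries lie left of all 3 CCl4-fib libraries in both panels, and NASH-fib replicate 1 is lowest in both.

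Most fibrillar collagens, the ropes of scar tissue, were lower in NASH-fib. Of 9 fibrillar collagen genes tested, 7 were called lower, where 5.66% of all tested genes were, and 0 higher. Their median log2 fold change was -1.60 beside -0.11 for all genes. Of 17 other interstitial collagen genes, 5 were lower and 0 higher, with a median of -1.31. Col6a1 (NM_009933, chromosome 10, 76708792 to 76726044, mm10), a chain of the beaded-filament collagen VI, had values of 1071, 2280.0 and 1300.3 in NASH-fib and 7944, 8361 and 8425 in CCl4-fib. All CCl4-fib libraries lay within a narrow band more than 3 times above the highest NASH-fib library (log2 fold change -2.49, standard error 0.38, adjusted p = 0.00846, limma). Col5a1, the main chain of collagen V, which sets the diameter of collagen fibrils, had 148, 152 and 133 in NASH-fib and 564, 839 and 1051 in CCl4-fib. The NASH-fib values were close to each other and below all CCl4-fib values (log2 fold change -2.45, standard error 0.33, adjusted p = 0.00618, limma). Its partner chain Col5a3 had a log2 fold change of -3.13. Col24a1, a minor fibrillar collagen of developing bone, had 4.08, 8.02 and 0 in NASH-fib, 164, 489.9 and 779.5 in CCl4-fib and 77.2, 94.7 and 152 in HSCs, so that NASH-fib lay below both other groups (log2 fold change -6.80, adjusted p = 0.00477, limma). Col6a5 fell by 2.43 on the log2 scale. Col7a1, the anchoring-fibril collagen, was at the floor in NASH-fib, with 3 reads or fewer in each library, and at least 4.37-fold lower. Such bounds, here and below, set the mean of the higher group against the mean value of 3 reads in the other group. Single libraries can fall short of them.

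The abundant collagens differed less. Col1a1 had 4729, 4498 and 3738 in NASH-fib and 8485, 11002 and 11375 in CCl4-fib. Col1a2 had 7426, 5263 and 3860.5 in NASH-fib and 12466, 15534 and 13945 in CCl4-fib. Col3a1 had 6882, 4280.4 and 3404 in NASH-fib and 14332, 15969.9 and 12180.4 in CCl4-fib. The groups did not overlap, and the HSC values were lower than those of both for each gene. Their log2 fold changes were -1.25, -1.39 and -1.60 (adjusted p = 0.0462, 0.0445 and 0.0261, limma). The Col1a2 promoter is the one that marked the cells for sorting, so its gene was part of how the cells were chosen, and its values flatten at the limit of 3 reads per position. The calls of Col6a1, Col5a1 and Col24a1 held in all 9 fits that left out 1 library. The other 6 calls were each lost in at least 1 fit, without CCl4-fib replicate 1, 2 or 3, HSC replicate 1, or NASH-fib replicate 1, 2 or 3, and Col7a1 was too low to be tested without CCl4-fib replicate 2 or 3. The fibrillar count was 2 to 4 without CCl4-fib replicate 1, 2 or 3, or NASH-fib replicate 2 or 3. It was 4 in edgeR and 4 with TMM scaling. The count of other collagens was 2 to 3 without CCl4-fib replicate 1, 2 or 3, or NASH-fib replicate 3. With GC and length trends removed, 4 fibrillar and 5 other collagens were lower, and the calls of Col1a1, Col1a2 and Col3a1 were lost.

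**Figure D3:**
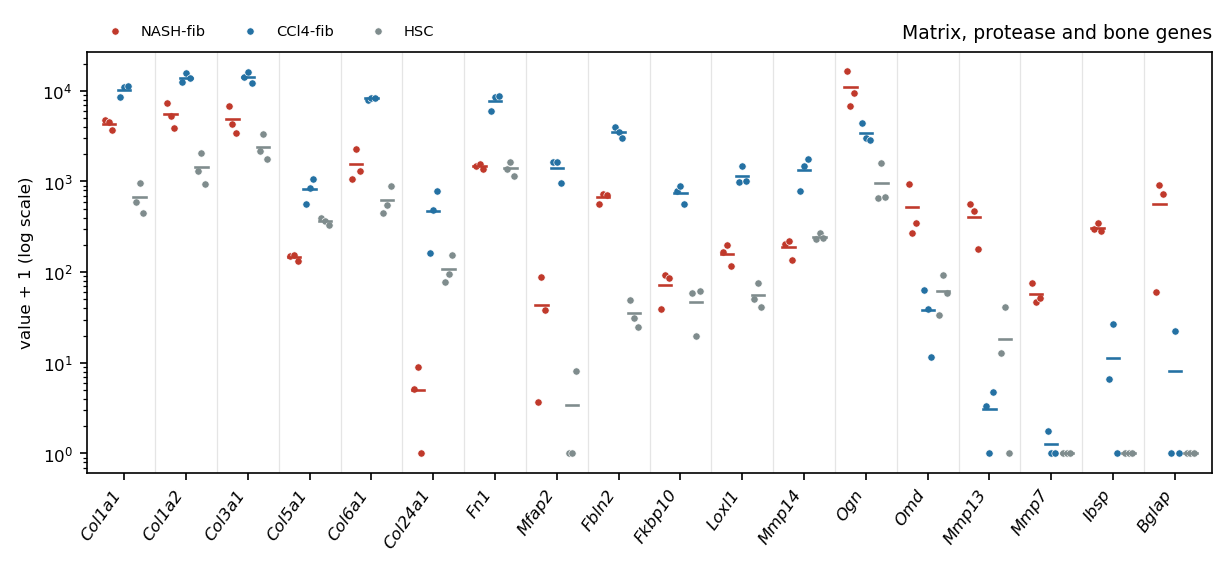
Value + 1 on a log scale (vertical) of 18 matrix, protease and bone genes in each library; points are single libraries (red NASH-fib, blue CCl4-fib, grey HSC) and short lines are group means of value + 1. From Col1a1 to Mmp14 all NASH-fib points lie below all CCl4-fib points, and from Ogn to Bglap all lie above them.

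Several genes of microfibrils and of the maturation of collagen were also lower. Of 21 genes of elastic fibers and microfibrils, 7 were called lower and 1 higher (median log2 fold change -1.03). Fbln2, encoding fibulin 2, which binds elastic fibers and basement membranes, had 571, 734 and 714 in NASH-fib and 4019, 3521 and 2999 in CCl4-fib (log2 fold change -2.38, standard error 0.34, adjusted p = 0.00779, limma). Ltbp2, a fibrillin-binding protein, had 126, 231 and 71.8 in NASH-fib and 909, 1224 and 882 in CCl4-fib. Emilin1, which sits between elastin and microfibrils, fell by 2.88 on the log2 scale. Mfap2, a small microfibril glycoprotein, had 2.72, 87.3 and 37.4 in NASH-fib, with the value of replicate 1 at 2 reads, and 1622, 1642 and 963 in CCl4-fib. The exception was Ltbp1 (NM_206958, chromosome 17, 75178810 to 75392967), which holds latent TGF-beta in the matrix, with 3324, 4478 and 5234 in NASH-fib and 2514, 1201 and 769 in CCl4-fib (log2 fold change 1.69, standard error 0.44, adjusted p = 0.0363, limma). All its NASH-fib values lay above those of CCl4-fib, opposite to Ltbp2.

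Of 26 genes of collagen maturation, 7 were lower and 0 higher (median -1.15). Fkbp10, a prolyl isomerase that helps to fold procollagen in the endoplasmic reticulum, had 38.1, 91.7 and 85.5 in NASH-fib and 794, 899.8 and 570.5 in CCl4-fib (log2 fold change -3.45, standard error 0.53, adjusted p = 0.00863, limma). Bmp1, the protease that removes the C-propeptide of procollagen, had 73.4, 184 and 187 in NASH-fib and 792, 1229.8 and 1451 in CCl4-fib (log2 fold change -3.03, standard error 0.46, adjusted p = 0.00837, limma). Both were apart by several-fold in every library. Loxl1, a lysyl oxidase that acts mainly on elastin, had 164, 197 and 117 in NASH-fib and 981, 1482 and 1025 in CCl4-fib (log2 fold change -2.87). Adamts14, an N-propeptidase, was lower by a log2 fold change of -4.59 at values of at most 103 in CCl4-fib. Among the 23 matricellular and glycoprotein genes, 5 were lower and 0 higher. Fn1, encoding fibronectin, the provisional matrix on which collagen assembles, had 1497, 1575 and 1357 in NASH-fib, 5970.3, 8594 and 8694 in CCl4-fib and 1384, 1637 and 1156 in HSCs, so the NASH-fib values lay in the HSC range (log2 fold change -2.37, standard error 0.30, adjusted p = 0.00562, limma). Tnc, encoding tenascin C of healing wounds, had 330.3, 332 and 235 in NASH-fib and 723, 1563 and 2857 in CCl4-fib. Wisp1 and Cthrc1 fell by 2.49 and 3.52 on the log2 scale. Ccdc80, a secreted matrix protein, was 1 of the 5 called lower genes with the highest level per length, at 4162, 5047 and 3851 in NASH-fib and 14858, 15978 and 17587 in CCl4-fib (log2 fold change -1.90, standard error 0.30, adjusted p = 0.00863, limma). It reached 3 reads per base, where values flatten.

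Basement membrane genes were split, with 4 of 22 lower and 1 higher. Lamc3, a laminin chain, had 53, 22.3 and 34.4 in NASH-fib and 327, 519 and 295 in CCl4-fib (log2 fold change -3.38). Hspg2, encoding perlecan, fell by 1.60, and Nid2 fell by 1.59 on the log2 scale. Col4a3, a collagen IV chain of specialised basement membranes, was higher instead, with 1203, 354 and 598 in NASH-fib and 180.2, 123 and 116 in CCl4-fib (log2 fold change 2.20, adjusted p = 0.0257, limma). The calls of Fbln2, Fkbp10, Bmp1, Loxl1, Fn1 and Ccdc80 held in all 9 fits that left out 1 library. Each of the other 12 calls was lost in at least 1 fit, without CCl4-fib replicate 1, 2 or 3, HSC replicate 1 or 3, or NASH-fib replicate 1, 2 or 3. The count of lower genes was 1 to 4 without CCl4-fib replicate 1, 2 or 3, HSC replicate 1, or NASH-fib replicate 1 or 3 for elastic fibers. For maturation it was 3 to 4 without CCl4-fib replicate 1, 2 or 3, or NASH-fib replicate 1 or 3. For glycoproteins it was 1 to 3 without CCl4-fib replicate 1, 2 or 3, or NASH-fib replicate 1 or 3. For basement membranes it was 0 to 2 without CCl4-fib replicate 1, 2 or 3, or NASH-fib replicate 3. With GC and length trends removed the calls of Cthrc1 and Nid2 were lost.

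Small leucine-rich proteoglycans, which bind collagen fibrils and limit their growth, included genes that were higher in NASH-fib. Of 11 tested, 3 were called higher, where 4.97% of all tested genes were, and 0 lower, with a median of 0.77. Ogn, encoding osteoglycin, had 16518, 6782 and 9365 in NASH-fib, 4368, 3013 and 2869.8 in CCl4-fib and 658, 1584 and 676 in HSCs. Each NASH-fib library was above each CCl4-fib library, and replicate 1 was the highest (log2 fold change 1.60, standard error 0.45, adjusted p = 0.0484, limma). Omd, encoding osteomodulin, a proteoglycan of mineralised tissue, had 935, 272 and 348 in NASH-fib and 62.7, 38.3 and 10.5 in CCl4-fib (log2 fold change 3.87, standard error 0.71, adjusted p = 0.0131, limma). Ecm2 had 1624, 837 and 1157 in NASH-fib and 465, 224 and 160.3 in CCl4-fib (log2 fold change 2.18). These 3 genes are neighbours and overlap Cenpp, a centromere gene on the opposite strand. Since reads of either strand were counted, the reads of each and of Cenpp cannot be told apart where they overlap. The call of Omd held in all 9 fits that left out 1 library. Those of Ogn and Ecm2 were each lost in at least 1 fit, without CCl4-fib replicate 1, 2 or 3, HSC replicate 1 or 3, or NASH-fib replicate 1 or 3, so that the count of higher genes was 1 without CCl4-fib replicate 2 or 3, or NASH-fib replicate 3.

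Matrix-degrading enzymes and their inhibitors had a median log2 fold change of 0.02, which turned to -0.27 when NASH-fib replicate 2 was left out and -0.13 when CCl4-fib replicate 1 was. There were 2 of 18 genes higher and 1 lower. Mmp13 (NM_008607, chromosome 9, 7272514 to 7283333), the main rodent collagenase, had 569.6, 471 and 179 in NASH-fib, 2.38, 0 and 3.82 in CCl4-fib and 11.7, 40.8 and 0 in HSCs. All NASH-fib libraries carried it at well over 100 while CCl4-fib held at most 4 reads (log2 fold change 7.17, standard error 1.20, adjusted p = 0.0106, limma). Mmp7, matrilysin, which is made mainly by epithelia, had 74.8, 45.4 and 51.1 in NASH-fib and 0.79, 0 and 0 in CCl4-fib. It had 1 read in all of CCl4-fib and none in HSCs, and was at least 22-fold higher in NASH-fib than in CCl4-fib (adjusted p = 0.00477, limma). Mmp14, the membrane-bound protease that activates Mmp2, ran opposite, with 201, 222 and 137 in NASH-fib and 776, 1494 and 1761 in CCl4-fib (log2 fold change -2.79, standard error 0.38, adjusted p = 0.00644, limma). Of the inhibitors, Timp1 had 742, 2563 and 2295 in NASH-fib and 1770.0, 1872 and 2911 in CCl4-fib, which overlap (log2 fold change -0.38, adjusted p = 0.786, limma). The calls of Mmp13, Mmp7 and Mmp14 held in all 9 fits that left out 1 library and with GC and length trends removed.

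Around plasminogen, 2 of 8 genes were higher and 2 lower. Serpinb2, the inhibitor PAI-2, had 0, 0.89 and 0 in NASH-fib, with 1 read in all, and 466, 848 and 927 in CCl4-fib, and was at least 231-fold lower. Plaur, the receptor that holds urokinase on the cell surface, had 12.2, 21.4 and 19.7 in NASH-fib and 102, 269 and 53.4 in CCl4-fib (log2 fold change -2.65). Both thus lay below all CCl4-fib values in NASH-fib. The members that were higher encode plasminogen and antiplasmin, which hepatocytes secrete. Plg had 54.4, 23.2 and 105 in NASH-fib and 7.94, 4.25 and 0 in CCl4-fib, and Serpinf2 had a log2 fold change of 2.45. The call of Serpinb2 held in all 9 fits that left out 1 library. Those of Plaur, Plg and Serpinf2 were each lost in at least 1 fit, without CCl4-fib replicate 1, 2 or 3, HSC replicate 1, 2 or 3, or NASH-fib replicate 1, 2 or 3, so that 0 to 2 were higher and 1 to 2 lower in those fits. With GC and length trends removed the call of Plaur was lost.

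Several genes of bone and mineralised tissue were higher in NASH-fib. Of 15 tested, 6 were called higher and 0 lower, with a median of 1.45, and the members include Omd above. Ibsp (NM_008318, chromosome 5, 104299287 to 104311472), encoding bone sialoprotein, which nucleates mineral, had 300.4, 344 and 285 in NASH-fib and 5.56, 25.5 and 0 in CCl4-fib and was listed at 0 in all HSC libraries. Its NASH-fib libraries were close to each other and all above CCl4-fib (log2 fold change 5.79, standard error 0.98, adjusted p = 0.011, limma). Bglap (NM_007541, chromosome 3, 88383495 to 88384466), encoding osteocalcin, had 59.8, 907 and 730.2 in NASH-fib and 0, 21.3 and 0 in CCl4-fib. Bglap2 had 42.1, 780.2 and 583 in NASH-fib and 0, 17.9 and 3.82 in CCl4-fib, and both were at 0 in HSCs. NASH-fib replicate 1 was well under replicates 2 and 3, yet above CCl4-fib (log2 fold changes 6.93 and 5.91, adjusted p = 0.014 and 0.0184, limma). Both genes are near-identical neighbours, so how their reads were divided is uncertain, and yet each counts as a call of its own. Bmp3 (NM_001310677, chromosome 5, 98854415 to 98884053), a BMP antagonist of bone, had 1131, 268 and 464 in NASH-fib and 15.1, 21.3 and 10.5 in CCl4-fib (log2 fold change 5.02, standard error 0.83, adjusted p = 0.0102, limma). Spp1, encoding osteopontin, which is also a product of cholangiocytes, had 10729.5, 4847 and 5255 in NASH-fib and 938, 1527 and 2421 in CCl4-fib, with all NASH-fib libraries higher but an adjusted p of 0.0561 (limma). The calls of Ibsp, Bmp3 and Omd held in all 9 fits that left out 1 library. Those of Bglap and Bglap2 were each lost in at least 1 fit, without CCl4-fib replicate 1 or NASH-fib replicate 3, so that the count of higher genes was 3 without NASH-fib replicate 3.

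Signaling genes that were higher in NASH-fib included ligands and antagonists of the FGF and BMP families and the angiopoietin system. Of 13 FGF genes tested 2 were higher and 0 lower, and of 35 TGF-beta and BMP genes 5 were higher and 1, Bmp1, was lower. Fgf9, an FGF of mesenchyme, had 652, 269.9 and 560.2 in NASH-fib, 81.8, 80.0 and 25.8 in CCl4-fib and 2.34, 0 and 4.78 in HSCs. Fgf12, which stays inside the cell, had 55.7, 8.02 and 19.7 in NASH-fib and 3.17, 0 and 0.95 in CCl4-fib but 296, 382 and 167 in HSCs. So both separated the fibroblast groups, Fgf9 with the HSC values lowest and Fgf12 with the HSC values highest (log2 fold changes 3.04 and 3.45, adjusted p = 0.0286 and 0.0233, limma). Chrdl1 (NM_001114385, chromosome X, 143285674 to 143394262), encoding chordin-like 1, a secreted BMP antagonist, had 1200.3, 1174 and 1537 in NASH-fib and 141, 27.2 and 14.3 in CCl4-fib and 16.4, 23.3 and 33.5 in HSCs. The NASH-fib libraries spanned a narrow range, all more than 8 times above the highest CCl4-fib library (log2 fold change 5.04, standard error 0.70, adjusted p = 0.00712, limma). The BMP receptor Bmpr1b had 89.7, 57.9 and 43.2 in NASH-fib and 11.9, 12.8 and 0 in CCl4-fib (log2 fold change 3.46).

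Of 21 PDGF, VEGF and angiopoietin genes, 6 were higher and 0 lower. Angpt1 and Angpt2 are the ligands that stabilise and destabilise vessels. Angpt1 had 644, 281 and 199.5 in NASH-fib and 106, 43.4 and 79.2 in CCl4-fib. Angpt2 had 189, 879 and 469 in NASH-fib and 152, 91 and 63 in CCl4-fib. Their receptor Tek, expressed by endothelium and by HSCs, had 624, 189.7 and 462 in NASH-fib, 84.1, 82.5 and 22.9 in CCl4-fib and 643, 794 and 656 in HSCs (log2 fold changes 2.19, 2.15 and 2.78). In each case the lowest NASH-fib library was above the highest CCl4-fib library. Of 21 genes of hepatotrophic factors and the IGF axis, 1 was higher and 1 lower. These shares of 4.76% each are near those of all tested genes, 4.97% and 5.66%. Igfbp5, an IGF-binding protein of fibroblasts, had 10838, 11543 and 13058 in NASH-fib and 4553, 3699 and 3293 in CCl4-fib (log2 fold change 1.63). Mdk, encoding the growth factor midkine, had 8.16, 43.6 and 25.6 in NASH-fib and 710.4, 936 and 377 in CCl4-fib, lower in every NASH-fib library (log2 fold change -4.83, standard error 0.66, adjusted p = 0.0062, limma). Among 19 Wnt genes 3 were lower, namely the ligand Wnt4 (log2 fold change -3.18) and the modulators Sfrp2 (-2.32) and Dkk3 (-2.09), and the ligand Wnt2b (3.41) was higher. The calls of Chrdl1 and Mdk held in all 9 fits that left out 1 library. Those of the other 11 were each lost in at least 1 fit, without CCl4-fib replicate 1, 2 or 3, HSC replicate 1 or 3, or NASH-fib replicate 1, 2 or 3. The count of higher FGF genes was 0 to 1 without CCl4-fib replicate 1, 2 or 3, or NASH-fib replicate 1 or 3. That of TGF-beta and BMP genes was 2 without CCl4-fib replicate 1, 2 or 3, or NASH-fib replicate 3. That of PDGF and VEGF genes was 0 to 2 without CCl4-fib replicate 1, 2 or 3, or NASH-fib replicate 3. The count of lower Wnt genes was 0 to 1 without CCl4-fib replicate 1, 2 or 3, or NASH-fib replicate 3. With GC and length trends removed the calls of Fgf9, Bmpr1b, Angpt1 and Sfrp2 were lost.

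Pericyte and mural genes, the vessel-wrapping relatives of fibroblasts, were mixed. Of 23 tested, 4 were higher in NASH-fib and 2 lower, with a median of 1.37. The median was -0.26 between the libraries with name prefix 11-3 and 2.24 between those with 11-7, prefixes that are described at the end. Rgs5 (NM_009063, chromosome 1, 169655501 to 169695813), a G-protein signaling regulator and the classical pericyte gene, had 29830.0, 20211 and 15987 in NASH-fib, 13715, 2296 and 3792 in CCl4-fib and 19974, 27511 and 14708 in HSCs. CCl4-fib replicate 1 came close to the lowest NASH-fib library (log2 fold change 2.11, standard error 0.60, adjusted p = 0.048, limma), and Rgs5 reached over 3 reads per base, where values flatten. Its relative Rgs4 had 4159.7, 2716 and 1928 in NASH-fib and 931, 147 and 356 in CCl4-fib (log2 fold change 2.93). The transcription factor Ebf1 had 995, 704 and 619 in NASH-fib and 367, 113 and 81.1 in CCl4-fib and 0 in HSCs. Abcc9 and Kcnj8, which together form a potassium channel of mural cells, moved in opposite directions. Abcc9 had 1208, 1424 and 1020.2 in NASH-fib and 426, 214 and 225 in CCl4-fib. Kcnj8 had 72, 70.4 and 61.9 in NASH-fib and 298, 152 and 151 in CCl4-fib. Both were highest in HSCs, at 12493, 13106 and 9896 for the former and 1112, 1188 and 928 for the latter (log2 fold changes 2.13 and -1.47, adjusted p = 0.0101 and 0.0309, limma). Steap4 was lower (log2 fold change -1.73). Contractile genes were near the background, with 1 of 31 higher and 1 lower, Smtn. Acta2, α-smooth muscle actin, the standard myofibroblast marker, had 5300.2, 8983 and 8846 in NASH-fib and 6692, 5464 and 6985 in CCl4-fib and 93.5, 40.8 and 74.1 in HSCs. Its fibroblast groups overlapped (log2 fold change 0.24, adjusted p = 0.701, limma). Each of the 7 calls was lost in at least 1 fit, without CCl4-fib replicate 1, 2 or 3, HSC replicate 1 or 3, or NASH-fib replicate 1, 2 or 3, and the count of higher mural genes was 0 to 7 without CCl4-fib replicate 1, 2 or 3, or NASH-fib replicate 1, 2 or 3. It was 7 in DESeq2 and with TMM scaling. The count of lower ones was 0 to 1 without CCl4-fib replicate 1, 2 or 3, HSC replicate 1, or NASH-fib replicate 1 or 3. With GC and length trends removed the calls of Rgs5, Ebf1, Kcnj8 and Smtn were lost.

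Several chemokine genes were lower in NASH-fib. Of 23 tested, 8 were called lower and 1 higher. Cxcl5 (NM_009141, chromosome 5, 90759298 to 90761625), a neutrophil attractant, had 32.6, 35.6 and 48.2 in NASH-fib, 2068, 2782 and 4243 in CCl4-fib and 12.9, 5.82 and 27.5 in HSCs. Each NASH-fib library was nearer to the HSC than to the CCl4-fib values (log2 fold change -6.21, standard error 0.53, adjusted p = 0.002, limma). Cxcl1, another ligand of the neutrophil receptor Cxcr2, had 95.2, 134 and 88.5 in NASH-fib and 1234, 1818 and 1071 in CCl4-fib (log2 fold change -3.67, standard error 0.72, adjusted p = 0.0156, limma). Ccl24, an eosinophil attractant, had 1.36, 0.89 and 8.85 in NASH-fib and 77.8, 57.8 and 116 in CCl4-fib and 67.8, 62.6 and 114 in HSCs (log2 fold change -4.53). Ccl6, a myeloid chemokine, was higher instead, with 175, 163 and 429.5 in NASH-fib and 30.9, 49.3 and 69.7 in CCl4-fib. Of 25 cytokine and acute-phase genes, 2 were lower and 5 higher. Saa3, the serum amyloid of injured tissue, was lower, with 20.4, 444 and 109 in NASH-fib and 3053, 3797 and 4256 in CCl4-fib (log2 fold change -5.17, standard error 0.85, adjusted p = 0.01, limma). Ptges, the inducible prostaglandin E synthase, was the other, with 16.3, 50.8 and 51.1 in NASH-fib and 440.5, 369 and 219 in CCl4-fib. Il1b, the inflammasome cytokine of myeloid cells, had 193, 93.5 and 242 in NASH-fib and 0, 11.1 and 3.82 in CCl4-fib (log2 fold change 5.41, standard error 0.85, adjusted p = 0.00875, limma). Its antagonist Il1rn and the liver serum amyloid Saa4 had log2 fold changes of 4.57 and 4.85. The calls of Cxcl5, Ccl24, Saa3 and Il1b held in all 9 fits that left out 1 library. Each of the other 5 calls was lost in at least 1 fit, without CCl4-fib replicate 1 or 2, or NASH-fib replicate 1 or 3. The chemokine count was 4 to 5 without CCl4-fib replicate 2 or 3, or NASH-fib replicate 3. The count of higher cytokine and acute-phase genes was 1 to 3 without CCl4-fib replicate 1 or 2, or NASH-fib replicate 1 or 3, and that of lower ones 1 without CCl4-fib replicate 1 or 2, or NASH-fib replicate 1 or 3. None of the 9 calls named was lost with GC and length trends removed.

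Immediate-early genes, which respond to stress within minutes, had 3 of 21 members lower and 0 higher. Ier3 had 97.9, 118 and 157 in NASH-fib and 1137, 2095 and 861 in CCl4-fib (log2 fold change -3.37, standard error 0.42, adjusted p = 0.00562, limma). Zfp36, encoding tristetraprolin, which degrades cytokine mRNA, had 621, 746 and 464 in NASH-fib and 3122, 3911 and 1291 in CCl4-fib. Of the mesenchymal transcription factors, 5 of 30 were lower and 1 higher. Osr1, a factor of connective-tissue progenitors, had 17.7, 13.4 and 10.8 in NASH-fib and 358, 479.7 and 67.7 in CCl4-fib. Runx1 had 32.6, 84.6 and 50.1 in NASH-fib and 257, 397 and 546 in CCl4-fib, and Twist1 fell by 2.48 on the log2 scale. Foxc1 was higher, with 151, 85.5 and 37.4 in NASH-fib and 25.4, 8.51 and 4.77 in CCl4-fib. Wt1, a factor of mesothelium, was lower, with 466, 379 and 396 in NASH-fib and 859.6, 1649 and 1604 in CCl4-fib. The groups did not overlap for any of these 5 factors. The call of Ier3 held in all 9 fits that left out 1 library. Those of the other 6 were each lost in at least 1 fit, without CCl4-fib replicate 1, 2 or 3, or NASH-fib replicate 1, 2 or 3. The count of lower immediate-early genes was 1 without CCl4-fib replicate 1 or 2, or NASH-fib replicate 3. The count of lower transcription factors was 0 to 3 without CCl4-fib replicate 1, 2 or 3, or NASH-fib replicate 1 or 3. With GC and length trends removed these counts were 1 and 2, and the calls of Zfp36, Osr1, Twist1 and Wt1 were lost.

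Adhesion genes of the nervous system, several of which fibroblasts also use, divided evenly, with 3 of 8 higher and 3 lower. Chl1, a close homologue of L1, had 14.9, 6.23 and 1.97 in NASH-fib and 529, 560.5 and 596 in CCl4-fib, with at most 2.39 in HSCs (log2 fold change -6.33, standard error 0.71, adjusted p = 0.00421, limma). Ncam1 had 821, 886 and 550.4 in NASH-fib and 3145, 4582 and 6787 in CCl4-fib (log2 fold change -2.64), and Cntn1 was at the floor in NASH-fib, at least 7.28-fold lower. The IgLON members Opcml and Ntm were higher by log2 fold changes of 3.54 and 2.03. Cdh11, the cadherin of fibroblasts, was lower, with 661, 256 and 345 in NASH-fib and 1279.5, 1781 and 2421 in CCl4-fib (log2 fold change -2.19, standard error 0.44, adjusted p = 0.0171, limma). Cdh5 of endothelium was higher, with 192, 40.1 and 131 in NASH-fib and 3.97, 2.55 and 3.82 in CCl4-fib. Cdh1 of epithelium was also higher, with 173, 102 and 82.6 in NASH-fib and 12.7, 1.7 and 22.9 in CCl4-fib. Of 18 integrin subunits 2 were higher. Itga4 had 393, 167 and 134 in NASH-fib and 52.4, 19.6 and 6.68 in CCl4-fib. Itgb6, an epithelial subunit that activates TGF-beta, had 31.3, 21.4 and 25.6 in NASH-fib and no read in CCl4-fib, which makes it at least 10.0-fold higher. The calls of Chl1, Cdh5 and Itgb6 held in all 9 fits that left out 1 library. The other 7 calls were each lost in at least 1 fit, without CCl4-fib replicate 1, 2 or 3, or NASH-fib replicate 1 or 3. The count of neural adhesion genes was 1 without CCl4-fib replicate 2 or NASH-fib replicate 3 for higher and 1 without NASH-fib replicate 3 for lower ones. That of higher integrins was 1 without CCl4-fib replicate 2 or 3, or NASH-fib replicate 1 or 3. All 10 calls were kept with GC and length trends removed.

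Markers of several other liver cell types were higher in NASH-fib. Whether their levels move with those of the higher genes above and below was not tested. In such bulk libraries, more cells of a type and more RNA per cell cannot be told apart. Of 20 hepatocyte markers 12 were called higher and 0 lower, and their summed values were 41008, 17548 and 57890.4 in NASH-fib and 13623, 14392 and 18364 in CCl4-fib, so that the sum of NASH-fib replicate 2 lay within the CCl4-fib range. Without Trf (transferrin), the member with the highest level, the sums were 36152, 12492 and 50049.6 in NASH-fib and 4001, 3661 and 6048 in CCl4-fib, which do not overlap. Albumin (Alb) had 14897, 1788 and 7894 in NASH-fib, 679, 617 and 829 in CCl4-fib and 9062, 14161 and 11657 in HSCs. Of 14 markers of sinusoidal endothelial cells 11 were higher, with sums of 3779, 2101 and 6435 in NASH-fib and 759.6, 691 and 656 in CCl4-fib. Clec4g had 434, 436 and 1596 in NASH-fib and 56.4, 35.7 and 32.4 in CCl4-fib (log2 fold change 4.02, standard error 0.60, adjusted p = 0.00811, limma). Of 16 macrophage markers 7 were higher, with sums of 4274, 3208 and 7284 in NASH-fib and 494, 998 and 912 in CCl4-fib. Lyz2 had 2929, 2282 and 3945 in NASH-fib and 205, 497 and 466 in CCl4-fib. Of 10 tested neutrophil markers 5 were higher, with sums of 670.2, 7912 and 2815 in NASH-fib and 1109.6, 1448 and 1888 in CCl4-fib that overlap. Lcn2 of that list, which fibroblasts also make, had 34, 1251 and 1439 in NASH-fib and 1095, 1380.4 and 1744 in CCl4-fib. Without Lcn2 the sums were 636, 6660.1 and 1376 in NASH-fib and 14.3, 68 and 144 in CCl4-fib. The neutrophil granule genes Ngp and S100a8 were highest in NASH-fib replicate 2. Ngp had 208, 2130.4 and 314 in NASH-fib and 0, 8.51 and 5.72 in CCl4-fib. S100a8 had 222, 1577 and 439 in NASH-fib and 2.38, 11.1 and 13.4 in CCl4-fib. Ltf had at most 1 read in each CCl4-fib library and was at least 61.3-fold higher. Of 6 tested lymphocyte markers 2 were higher, with sums of 207, 78.4 and 318 in NASH-fib and 28.6, 21.3 and 28.6 in CCl4-fib. Cd3e, Cd3d and Cd3g were at 0 in all CCl4-fib libraries. Ptprc, which encodes the CD45 that the sort selected against, had 319, 62.3 and 312 in NASH-fib and 8.73, 25.5 and 24.8 in CCl4-fib (log2 fold change 3.30, standard error 0.74, adjusted p = 0.0233, limma). Whether cells that passed the sort or RNA from other cells gave these reads was not tested.

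Of 11 tested cholangiocyte markers 5 were higher, and their sums were 12385, 6684 and 7302 in NASH-fib and 3922, 5316 and 4131 in CCl4-fib. Spp1, described above with the bone genes, made up most of the NASH-fib sums. Without it the sums were 1656, 1837 and 2047 in NASH-fib and 2984, 3789 and 1709.7 in CCl4-fib and overlapped. Epcam had 66.6, 37.4 and 20.6 in NASH-fib and 7.94, 0.85 and 1.91 in CCl4-fib. Pkhd1 had 122, 36.5 and 93.4 in NASH-fib and 0, 9.36 and 0 in CCl4-fib. Krt19 had 53, 469 and 348 in NASH-fib and 2174, 2699 and 771 in CCl4-fib and was not called (adjusted p = 0.0502, limma), and Krt7, Krt8 and Krt18 overlapped. MHC class II markers had 0 calls of 9 in either direction in limma, with 1 higher and 0 lower at an unadjusted p under 0.05 and 1 higher in edgeR and in DESeq2. Mesothelial markers had 1 higher, Cd200 (log2 fold change 1.56), and 1 lower, Wt1, of 11. When 1 library was left out, the count of higher hepatocyte markers was 2 to 4 without CCl4-fib replicate 1 or 2, or NASH-fib replicate 3. For sinusoidal endothelium it was 4 to 7 without CCl4-fib replicate 1, 2 or 3, or NASH-fib replicate 3. For macrophages it was 0 to 4 without CCl4-fib replicate 1, 2 or 3, or NASH-fib replicate 1 or 3. For neutrophils it was 1 to 2 without CCl4-fib replicate 1, 2 or 3, or NASH-fib replicate 3. For lymphocytes it was 0 to 4 without CCl4-fib replicate 1, 2 or 3, HSC replicate 2, or NASH-fib replicate 1 or 3. For cholangiocytes it was 0 to 3 without CCl4-fib replicate 1, 2 or 3, or NASH-fib replicate 1, 2 or 3. The calls of Clec4g and Ngp held in all 9 fits that left out 1 library. Each of the other 8 calls was lost in at least 1 fit, without CCl4-fib replicate 1, 2 or 3, or NASH-fib replicate 1, 2 or 3.

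**Figure D4:**
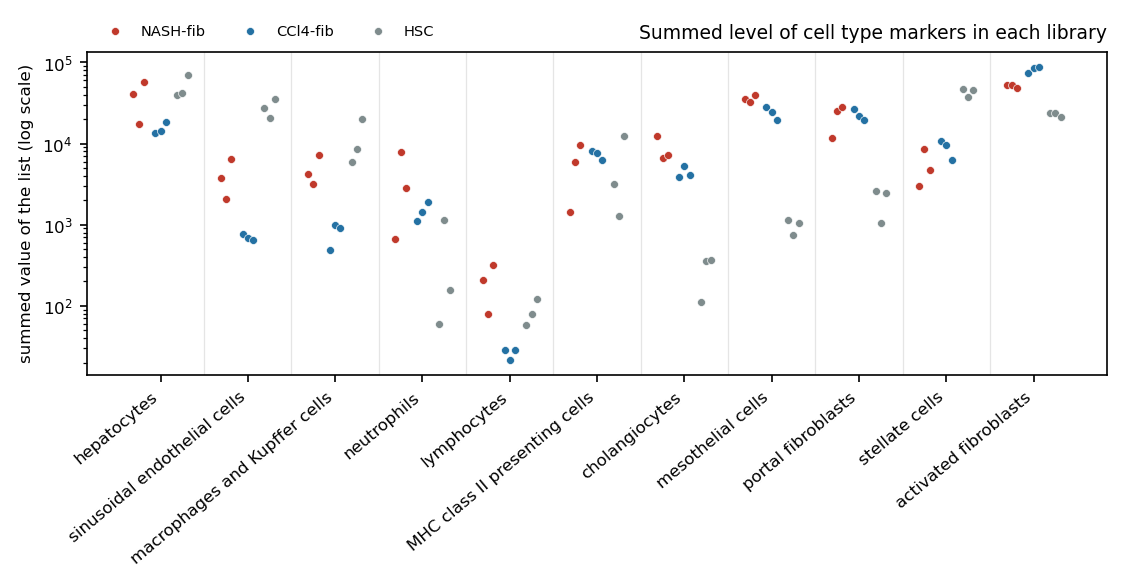
Summed value of each marker list (log scale, vertical) in each library, for 11 cell types (red NASH-fib, blue CCl4-fib, grey HSC). NASH-fib lies above CCl4-fib in all libraries for sinusoidal endothelial cells, macrophages, lymphocytes, cholangiocytes and mesothelial cells, and below it for activated fibroblasts, but without Spp1 the cholangiocyte sums overlap, and without Gpm6a the mesothelial ones do.

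Metabolic genes that were higher in NASH-fib included genes that hepatocytes express strongly. Of 41 complement and coagulation genes 12 were higher and 1 lower. C9, the pore-forming complement protein, had 550.5, 110.4 and 506 in NASH-fib and 12.7, 5.95 and 16.2 in CCl4-fib. Hc (complement C5) and the coagulation factor gene F10 had at most 2 reads in each CCl4-fib library, and they were at least 65.5-fold and 31.3-fold higher. The lower gene was Cd55, which shields cells from complement, with 639, 182 and 312 in NASH-fib and 1476, 2363 and 1263 in CCl4-fib. Of 22 P450 genes 3 were higher and 1 lower. Cyp2e1, whose enzyme converts CCl4 to its radical, had 3779, 2043 and 3652 in NASH-fib, 377, 205 and 84.9 in CCl4-fib and 3499, 3423 and 10367 in HSCs. All CCl4-fib libraries were below all others (log2 fold change 4.01, standard error 0.59, adjusted p = 0.00811, limma). Cyp7b1, an oxysterol hydroxylase, was the lower one, with 88.4, 81 and 39.3 in NASH-fib and 339.7, 469 and 215 in CCl4-fib. Of 32 genes of fatty acid oxidation and PPAR targets 7 were higher and 1 lower. Cyp4a12a and Cyp4a10, fatty acid hydroxylases of hepatocytes, were at 0 in all CCl4-fib libraries. Cyp4a12a had 174, 29.4 and 517 in NASH-fib and 138, 67 and 1048 in HSCs. Cyp4a10 had 158, 5.34 and 192 in NASH-fib and 223, 35 and 1140.5 in HSCs. They were at least 92.4-fold and 45.5-fold higher in NASH-fib than in CCl4-fib. Cyp4a12a and Cyp4a12b are near-identical, so the division of their reads is uncertain. Slc27a2, a fatty acid transporter, had a log2 fold change of 4.53. Fabp1, the fatty acid-binding protein of hepatocytes, had 4754, 1871 and 2958 in NASH-fib and 671, 696 and 1361 in CCl4-fib. The lower gene was Angptl4, a secreted lipase inhibitor and PPAR target that fibroblasts also make, with 77.5, 217 and 104 in NASH-fib and 451, 931 and 1096 in CCl4-fib.

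The lists of lipid synthesis, of lipid droplets and retinoids and of glycolysis were near the background of 4.97% higher and 5.66% lower, or below it. Their shares were at most 4.17% higher and 8.33% lower. In lipid synthesis, 1 of 31 genes was higher and 0 lower. The higher gene, Scd1, the stearoyl-CoA desaturase, had 10413, 1561 and 15405 in NASH-fib, 619, 338 and 528 in CCl4-fib and 1372, 6541 and 4178 in HSCs (log2 fold change 3.71, standard error 0.81, adjusted p = 0.0222, limma). In the list of lipid droplets and retinoids 1 of 26 was higher, the droplet gene Cidec, with no read in any CCl4-fib library and a level at least 5.05-fold higher, and 2 were lower. Dhrs3, which reduces retinal to retinol, had 239, 719.6 and 542 in NASH-fib and 5289, 4354 and 3228 in CCl4-fib (log2 fold change -3.21, standard error 0.45, adjusted p = 0.00712, limma). Stra6, the receptor that takes up retinol, had 0, 1.78 and 3.93 in NASH-fib and 49.2, 40.8 and 44.8 in CCl4-fib. Lrat, which makes the stored retinyl esters, had 458, 200.4 and 189 in NASH-fib and 225, 348 and 95.4 in CCl4-fib but 10234, 14894 and 7070.5 in HSCs, so the fibroblast groups overlapped far below the HSC level. Among serine and one-carbon enzymes 2 of 18 were lower. Phgdh, which opens serine synthesis, had 2.72, 16.9 and 16.7 in NASH-fib and 152, 148 and 157 in CCl4-fib (log2 fold change -3.86, standard error 0.69, adjusted p = 0.0124, limma). Pycr1, which closes the synthesis of proline, a main residue of collagen, had 2.72, 8.91 and 8.85 in NASH-fib and 85.7, 91 and 88.7 in CCl4-fib (log2 fold change -3.65, adjusted p = 0.0107, limma). Their CCl4-fib values differed little between libraries, and both were at 0 in HSCs. Shmt1, the cytosolic serine hydroxymethyltransferase, was higher, with 121, 74.8 and 220.2 in NASH-fib and 23.8, 15.3 and 28.6 in CCl4-fib. In glycolysis 2 of 24 were lower, the phosphofructokinase Pfkl with 5.44, 46.3 and 27.5 in NASH-fib and 371, 408 and 193 in CCl4-fib and the lactate exporter Slc16a3. The stress gene Ndrg1 was the 1 that was higher.

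The calls of Hc, C9, F10, Cyp2e1, Cyp4a12a and Dhrs3 held in all 9 fits that left out 1 library. Those of the other 15 were each lost in at least 1 fit, without CCl4-fib replicate 1, 2 or 3, HSC replicate 1 or 3, or NASH-fib replicate 1, 2 or 3. The count of higher genes was 3 to 6 without CCl4-fib replicate 1 or 2, or NASH-fib replicate 3 for complement and coagulation, 1 to 10 without CCl4-fib replicate 1 or 2, or NASH-fib replicate 1, 2 or 3 for P450 and 1 to 2 without CCl4-fib replicate 1, 2 or 3, or NASH-fib replicate 1 or 3 for fatty acid oxidation. The count of higher P450 genes was 8 in edgeR and 10 in DESeq2. In DESeq2 23 complement and coagulation genes and 12 of fatty acid oxidation were higher. Lower glycolysis genes numbered 0 to 4 without CCl4-fib replicate 1, 2 or 3, HSC replicate 3, or NASH-fib replicate 1, 2 or 3. Lower serine and one-carbon enzymes numbered 0 without CCl4-fib replicate 2, and lower lipid droplet and retinoid genes 1 without CCl4-fib replicate 2.

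Several genes of growth and protein synthesis were lower in NASH-fib. Of 30 cell cycle genes 5 were lower and 0 higher, with a median of -1.25. Cdk1, the mitotic kinase, had 17.7, 63.2 and 33.4 in NASH-fib and 157, 179.5 and 243 in CCl4-fib (log2 fold change -2.47, standard error 0.49, adjusted p = 0.0164, limma). Tyms, which makes thymidylate, had 40.8, 104 and 69.8 in NASH-fib and 294, 350.4 and 527 in CCl4-fib, and the helicase subunit Mcm5 fell by 3.49 on the log2 scale. In the endoplasmic reticulum and secretory list 6 of 32 were lower and 0 higher. The coatomer subunit Cope had 34, 439 and 323 in NASH-fib and 2279, 1909 and 1822 in CCl4-fib. The translocon subunit Sec61b had 51.7, 45.4 and 21.6 in NASH-fib and 461, 656 and 118 in CCl4-fib. The retrieval receptor Kdelr3 had 107, 59.7 and 57 in NASH-fib and 316, 337 and 329 in CCl4-fib. NASH-fib lay below CCl4-fib in every library for these 3. Of 33 respiratory chain genes 7 were lower and 1, Ndufs1, was higher. In this list 14 genes lay wholly below CCl4-fib and 11 wholly above it, so it was split. Its median of -0.20 turned to 0.18 in edgeR, 0.17 in DESeq2 and 0.42 with GC and length trends removed. Uqcrc1 of complex III had 16.3, 28.5 and 28.5 in NASH-fib and 241, 264 and 174 in CCl4-fib. Of 35 ribosomal protein genes 7 were lower and 0 higher. Their stalk member Rplp0 had 102, 1242 and 718 in NASH-fib and 4346, 4779.8 and 4290.4 in CCl4-fib, and 235, 135 and 840.5 in HSCs, and the lowest values were in NASH-fib replicate 1 and HSC replicate 2, the libraries that also read GC-rich genes least. The part of GC content in these values was not tested. The ribosomal count was 1 to 3 without CCl4-fib replicate 1, 2 or 3, or NASH-fib replicate 1 or 3, and 3 with GC and length trends removed, when the list median moved from -0.62 to 0.16. The median was 0.05 without NASH-fib replicate 1, -1.70 between the libraries with name prefix 11-3 and -0.14 between those with 11-7. For respiratory chain genes the latter count was 2 and for the secretory list 3. Cell cycle counts were 0 to 1 without CCl4-fib replicate 1, 2 or 3, or NASH-fib replicate 3. Those of the secretory list were 0 to 3 without CCl4-fib replicate 1, 2 or 3, HSC replicate 1, or NASH-fib replicate 1 or 3, and 2 in edgeR. Those of the respiratory chain were 1 to 4 without CCl4-fib replicate 1, 2 or 3, or NASH-fib replicate 1 or 3. The call of Uqcrc1 held in all 9 fits that left out 1 library. The other 8 calls were each lost in at least 1 fit, without CCl4-fib replicate 1, 2 or 3, HSC replicate 1, or NASH-fib replicate 1 or 3. Interferon-stimulated genes had 3 higher, Ifit2, Ifit3 and Rsad2, and 3 lower, Irf7, Psmb9 and Bst2, of 29. The higher count was 0 to 1 without CCl4-fib replicate 1, 2 or 3, HSC replicate 1, or NASH-fib replicate 1 or 3. The lower count was 0 to 1 without CCl4-fib replicate 1 or 2, or NASH-fib replicate 1 or 3. With the replicate block there was 1 in each direction.

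**Figure D5:**
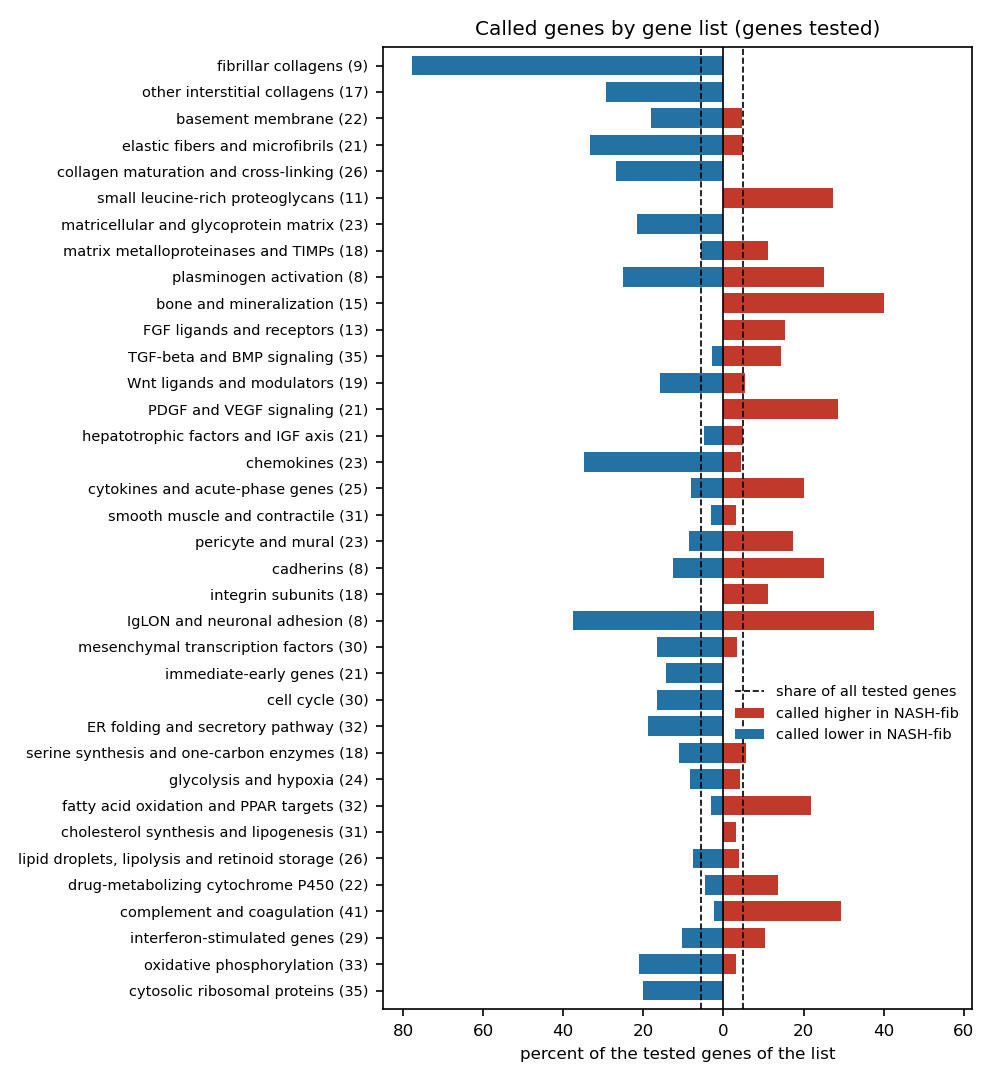
Share of the tested genes of each gene list other than the cell type marker lists (rows, number tested in brackets) that were called lower in NASH-fib (blue, left) and higher (red, right), in percent. The dashed lines mark the shares among all tested genes, 5.66% lower and 4.97% higher; among the lists plotted the fibrillar collagens reach farthest to the left, and the bone list farthest to the right.

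Outside the lists, the largest differences included genes best known from other tissues. Calca, encoding calcitonin and the neuropeptide CGRP, had 8.16, 10.7 and 7.86 in NASH-fib and 575, 1544 and 2382 in CCl4-fib and at most 1.46 in HSCs (log2 fold change -7.03, standard error 0.62, adjusted p = 0.002, limma). Tnmd, encoding tenomodulin of tendon, was at 0 in all NASH-fib and HSC libraries and had 113, 56.1 and 56.3 in CCl4-fib, and was at least 23.2-fold lower in NASH-fib. Lgals7 and Krt14, genes of stratified epithelium, were lower. Lgals7 had 0, 2.67 and 2.95 in NASH-fib and 332, 458 and 350.1 in CCl4-fib. Krt14 had 0, 11.6 and 20.6 in NASH-fib and 205, 317 and 231 in CCl4-fib. Cryaa, the lens crystallin, was at 0 in NASH-fib and HSCs, with 81.8, 223 and 519 in CCl4-fib. The groups lay wholly apart for all of these, which the rule that picked them required. Prss35, Stac2, Dpysl5 and Gm6093 completed the 15 largest decreases. On the other side Cldn2, a tight junction gene of epithelia, had 345, 321 and 425 in NASH-fib and 9.52, 8.51 and 0 in CCl4-fib (log2 fold change 6.28, standard error 0.85, adjusted p = 0.00618, limma). Anxa13, an annexin of epithelia, had 88.4, 59.7 and 73.7 in NASH-fib and 0 in all CCl4-fib libraries, and was at least 28.4-fold higher. Both had narrow ranges within NASH-fib, as had the cholangiocyte sums without Spp1 (1656, 1837 and 2047). The hepatocyte genes Gys2 (330.3, 21.4 and 225), Ugt3a2 (500.2, 24.9 and 154) and Mup20 (6500.5, 965 and 3609) were lowest in replicate 2, as albumin was. Which cells gave the reads of Cldn2 and Anxa13 was not tested. Cyp2c38 and Serpina12 were the others among the 15 largest increases. Among the genes with the highest level per length that were called, Apoc1 was higher, with 1718, 1257 and 2183 in NASH-fib and 418, 407 and 891 in CCl4-fib, and Sod1, Rps20 and Dmkn were lower, the last with 571, 752 and 607 in NASH-fib and 2433, 2429.9 and 2828 in CCl4-fib. The calls of Calca, Tnmd, Lgals7, Cryaa, Prss35, Stac2, Dpysl5, Gm6093, Cldn2, Anxa13, Ugt3a2 and Serpina12 held in all 9 fits that left out 1 library. Each of the other 8 calls was lost in at least 1 fit, without CCl4-fib replicate 1, 2 or 3, or NASH-fib replicate 1, 2 or 3.

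Few markers of stellate cell or portal fibroblast identity were called. Stellate cell markers had 0 higher and 0 lower of 14 in limma, with 3 and 1 at an unadjusted p under 0.05. In edgeR 1 was higher and in DESeq2 3 were higher and 1 lower. Their median was -0.18, but 0.39 in edgeR, 0.38 in DESeq2 and 0.15 without NASH-fib replicate 1. It was -1.22 between the libraries with name prefix 11-3 and 0.72 between those with 11-7. Portal fibroblast markers had 2 lower, Fbln2 and Entpd2, of 14, and 1 without CCl4-fib replicate 1 or 2, or NASH-fib replicate 1 or 3. Their median was -1.35 between the 11-3 libraries and 0.35 between the 11-7 ones. Pdgfrb had 330.3, 1909.5 and 814 in NASH-fib and 1700.1, 854 and 959.8 in CCl4-fib. Des had 32.6, 1102 and 495 in NASH-fib and 365, 294 and 344 in CCl4-fib. Vim had 4268, 4344 and 3598 in NASH-fib and 3667, 4872 and 4623 in CCl4-fib. These overlap between the groups, with log2 fold changes of -0.48, -0.34 and -0.10, none of them called. The sign of each turned under at least 1 other setting. Of 15 markers of activated fibroblasts 6 were lower, namely Col1a1, Col1a2, Col3a1, Loxl1, Fn1 and Tnc, and 0 higher. The lower count was 2 to 3 without CCl4-fib replicate 1, 2 or 3, or NASH-fib replicate 2 or 3, and 3 in edgeR. Against the HSC libraries, 301 of the 773 lower genes had HSC means below both fibroblast groups and 450 had them in between, while 332 of the 678 higher genes had HSC means above both. All comparisons here share these 3 HSC libraries, and no test was made of the order. The same shares over all tested genes are not given here, so no excess can be read from these counts. The HSC libraries also read markers of other cells, with sums of 39181, 42562 and 70866 for hepatocytes. For sinusoidal endothelial cells the sums were 27433, 20698 and 35048, but for cholangiocytes only 112, 355 and 372. How far such reads set the HSC means of these genes was not tested.

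The library names carry number prefixes whose meaning is not given in the sources used here. The prefix 11-3 covers NASH-fib replicate 1 and CCl4-fib replicate 1, and 11-7 covers the other NASH-fib libraries and CCl4-fib replicate 3, while CCl4-fib replicate 2 has a prefix of its own among the fibroblasts. A fit with the prefix as a term called 344 higher and 249 lower genes. In it the lower genes numbered 4 among fibrillar collagens, 4 among elastic fiber genes, 4 among collagen maturation genes, 2 among cell cycle genes, 1 among mesenchymal transcription factors, and 1 each in the secretory and respiratory chain lists. The higher ones numbered 6 among complement and coagulation genes, 2 among those of fatty acid oxidation and 2 among PDGF and VEGF genes. Between the libraries with 11-3 and between those with 11-7, the difference in mean log2(value + 1) was 7.40 and 5.92 for Mmp13, -2.89 and -2.29 for Col6a1 and -5.94 and -6.64 for Cxcl5.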

How the data were processed

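RNA sequencing of 9 mouse liver cell libraries was analysed from 1 table of 24453 genes. Per the file headers, HOMER counted reads on exons of RefSeq genes (mm10) on either strand, with at most 3 reads per position. By the same headers its DESeq2 wrapper was run on 10 libraries, of which 9 have deposited values, and all 9 were used here. STAR and CASAVA are named in the submitters' processing notes, with no version given in the sources used here. The signal values the authors deposited are counts multiplied by 1 factor per library, from which whole reads were recovered for 100% of values (tolerance 0.0055), with 3071070 to 5634273 reads per library. Such counts cover counting error only, and a limit of 3 reads was used as the floor.

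Values were compared as log2(value + 1) by limma 3.58.1 with a mean-variance trend (R 4.3.3), in 1 fit over all 9 libraries, so that HSC libraries share the estimate of spread, for genes that passed edgeR 4.0.16 filterByExpr with a minimum count of 10. Calls required a log2 change no smaller than 1 either way and a Benjamini-Hochberg adjusted p under 0.05. With 3 libraries against 3, an exact permutation test cannot go below 0.1. The values are not counts as deposited, so edgeR's quasi-likelihood test and DESeq2 1.42.0 on the recovered reads served as alternatives. Tests were 2-sided, and the limma step was tested on simulated data. Libraries of a group are separate pools, and p-values measure the spread between them.

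Named genes were, per direction, the 15 with the largest called change among genes whose libraries did not overlap, the 5 with the highest level per kb in each direction, up to 3 called genes in each direction of each gene list, a set of identity genes and the cell type markers. Members and lists were chosen with earlier results of these data known. Other scalings, tests, filters, pseudocounts, terms and libraries left out are given in the closing section. Upstream sequences are from RefSeq (GRCm38.p6), with 10329 of 13651 tested genes matched. Marker sums without their most abundant gene were added after seeing the data. Some called genes are not reported here.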

Additional observations from a re-analysis of the deposited data

How the results depend on the processing

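The counts of 678 higher and 773 lower genes became 802 and 563 in edgeR, 1518 and 1161 in DESeq2, 777 and 618 with TMM scaling, 472 and 457 with the replicate number as a block and 344 and 249 with the name prefix as a term, and the cause was not tested. With the hepatocyte marker level as a term they became 0 and 0, but this level runs with the groups and cannot be told apart from them. Leaving out 1 library gave 113 to 794 higher and 72 to 1013 lower genes, and a fit of fewer libraries has fewer residual degrees of freedom. The share of higher among called genes was 46.7% and became 58.8% in edgeR, 56.7% in DESeq2, 58.0% with the name prefix, 56.5% with length trends removed and 60.0% with GC and length trends removed, an alternative chosen after seeing the data. Same-numbered libraries did not deviate together (r = -0.127, 0.002 and 0.04). With so few libraries per group, these values cannot exclude that the numbers pair the samples. Replicate 1 of both fibroblast groups has the name prefix 11-3, and replicate 3 of both has 11-7. Of 166 named genes that were called, 16 lost the call in edgeR, 35 with the replicate block, 62 with the name prefix, 31 with GC and length trends removed and all 166 with the hepatocyte term, where signs also turned for Slc16a3 (0.46) and Cyp2c50 (-0.05). Among genes that were not called, signs turned for Lrat (-0.25 with GC and length trends removed, and from -0.11 to 0.81 over the fits that left out 1 library, with the former lacking CCl4-fib replicate 3 and -0.01 lacking NASH-fib replicate 1), Pdgfrb (0.48 with the hepatocyte term, 0.02 with GC and length trends removed, from -1.11 to 0.16 over those fits, the latter lacking NASH-fib replicate 1), Des (0.79 in edgeR, 0.76 in DESeq2, 0.65 with GC and length trends removed, from -1.37 to 1.15, likewise), Timp1 (0.24 with length trends removed, 0.58 with GC and length trends removed, from -0.71 to 0.19, likewise) and Vim (0.08 in edgeR, 0.07 in DESeq2, 0.08 with TMM, 0.00 with upper-quartile scaling, 0.29 with the hepatocyte term, 0.34 with length trends removed, 0.07 with GC and length trends removed). Folds against a group with 3 reads or fewer in every library are given as bounds on the group means, and the folds of other genes with few reads are imprecise.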
